A study of Mus musculus with 6 samples.

Results

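The 301 genes described here are the processed pseudogenes that macrophages of this study expressed most. They were chosen by their FPKM, as rows of the deposited table with the biotype processed pseudogene (283 genes) or transcribed processed pseudogene (18 genes) that reached at least 5 FPKM (fragments per kilobase of gene at a common library size, a level per length) in at least 3 of 6 libraries. The table holds 54532 genes, of which 9773 are processed pseudogenes of any level, and 7267 of those had no read in any library. Their height is therefore not a finding. Just inside the level were Gm6768, Rpl35a-ps3 and Gm19221, where the lowest of the top 3 libraries had 5.12, 5.23 and 5.25 FPKM, and just outside it were Gm4864, Gm15899 and Rpl15-ps3, at 4.98, 4.97 and 4.96. All but 6 members reached 5 FPKM in a library of each group, and 255 reached it in all 6 libraries.

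The study compared SAHH-KO with control mouse macrophages by bulk RNA-seq, with 3 libraries in each group. SAHH, encoded by Ahcy, breaks down S-adenosylhomocysteine, which inhibits methyltransferases. One label calls the first group SAHH-KO and another a knockdown, and the labels call the second group shControl or WT. Both groups were peritoneal cells elicited with thioglycollate over 4 days, kept by 6 h of adherence, and given interferon-γ at 2 ng/mL with lipopolysaccharide at 10 ng/mL for 8 h, so no unstimulated cells were compared. Nothing in the labels says that replicates were separate animals or cultures, so p-values rest on a spread between libraries that may be technical. Ahcy stood at 5.51, 5.50 and 6.23 FPKM in SAHH-KO libraries, against 25.8, 22.6 and 24.4 in control libraries. No member had Ahcy as its closest protein-coding match. Gm4737 was looked up beside Ahcy, and its biotype is protein-coding, so it could not be a member. It had 15.71, 20.66 and 17.51 FPKM in SAHH-KO libraries, against 66.98, 63.41 and 68.25 in control libraries. Whether reads were shared between Gm4737 and Ahcy was not tested.

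The libraries held 15856261 to 17748745 assigned reads in SAHH-KO and 15540442 to 16676534 in control. In a 1 kb gene 3 reads corresponded to 0.168 to 0.197 FPKM. Of 8 macrophage markers 7 reached 1 FPKM in 3 libraries, and the exception, Mertk, stayed at or below 0.0139 FPKM. The sum of the list was 9320 to 10586 FPKM in SAHH-KO, against 8344 to 8645 in control. Lyz2 alone held 5491 to 7383 FPKM of it across libraries. Single markers went both ways. Fcgr1 had 10.7 to 15.9 FPKM in SAHH-KO against 2.47 to 2.68 in control, and Adgre1 had 141 to 190 against 77.0 to 80.5. Csf1r had 86.0 to 98.5 FPKM in SAHH-KO against 99.5 to 115 in control. Looked up apart from the lists, Pycard and H2-Ab1 stayed at or below 0.0963 and 0.110 FPKM, and H2-Aa was at 0 throughout. Summed B cell markers stayed at or below 0.268 FPKM and T cell markers at or below 0.015. The neutrophil sum was 0 to 0.473 FPKM in SAHH-KO against 4.13 to 5.10 in control, with S100a9, Ly6g and Retnlg at 0. The part of these differences in the results was not tested, and in bulk samples fewer cells of a type and less RNA per cell cannot be told apart.

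A processed pseudogene arises when a spliced mRNA is reverse transcribed by the LINE-1 retrotransposon machinery and inserted elsewhere in the genome. Such a copy lacks the introns and usually the promoter of its parent gene, and it gathers mutations over time. Parents are often housekeeping genes with abundant mRNA, ribosomal proteins above all. Because a young copy is nearly identical to the mature parent mRNA, short reads of one can be assigned to the other.

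The aligned stretches below, from GENCODE M21 transcripts (GRCm38), show how much sequence separates copy and parent in the pairs on which the results turn. Each is 120 bases long, lies within the parent's coding sequence and was placed where the pair differed most. Capitals mark bases that differ within the pair. The copy of Rpl26, Gm15772 (chromosome 5, plus strand, 3236431 to 3236868), and the copy of Gapdh, Gm13394 (chromosome 2, minus strand, 28933610 to 28934609), had the highest FPKM of all members and differed from their parents at 2 bases and 1 base of the stretch.

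Gm15772: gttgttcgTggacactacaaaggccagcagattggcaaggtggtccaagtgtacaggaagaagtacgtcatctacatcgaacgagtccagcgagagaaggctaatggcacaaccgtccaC
Rpl26: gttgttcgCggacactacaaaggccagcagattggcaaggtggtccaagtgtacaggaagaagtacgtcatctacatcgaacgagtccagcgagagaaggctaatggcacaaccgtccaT
Gm13394: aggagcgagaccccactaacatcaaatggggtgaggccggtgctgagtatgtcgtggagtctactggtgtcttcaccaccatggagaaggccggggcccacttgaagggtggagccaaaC
Gapdh: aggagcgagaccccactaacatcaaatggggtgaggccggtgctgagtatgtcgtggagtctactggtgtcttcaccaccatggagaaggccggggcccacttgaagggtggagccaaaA

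Copies whose change differed from the parent's in size or direction are shown next. Among them, Gm19221 reached 5 FPKM in SAHH-KO alone, so its difference was built into its choice. Gm20056 (chromosome 16, plus strand, 32408536 to 32409054) differed from Chp1 at 7 bases, Gm6548 (chromosome 17, minus strand, 78850792 to 78851956) from Eef1a1 at 10 bases, and Gm19221 (chromosome 12, plus strand, 69980886 to 69982468) from Ppp2r2a at 9 bases.

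Gm20056: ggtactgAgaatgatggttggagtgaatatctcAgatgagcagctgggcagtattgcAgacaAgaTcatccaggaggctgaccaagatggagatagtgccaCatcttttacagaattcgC
Chp1: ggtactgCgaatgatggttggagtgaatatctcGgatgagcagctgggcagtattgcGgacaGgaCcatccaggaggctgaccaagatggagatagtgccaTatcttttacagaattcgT
Gm6548: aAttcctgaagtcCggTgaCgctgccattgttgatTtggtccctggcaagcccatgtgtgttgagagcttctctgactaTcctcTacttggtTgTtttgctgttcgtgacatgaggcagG
Eef1a1: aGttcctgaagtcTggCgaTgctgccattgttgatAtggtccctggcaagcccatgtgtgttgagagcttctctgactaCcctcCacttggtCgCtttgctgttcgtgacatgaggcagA
Gm19221: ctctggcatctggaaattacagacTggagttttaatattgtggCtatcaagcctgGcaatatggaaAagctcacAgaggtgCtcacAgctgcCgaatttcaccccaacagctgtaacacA
Ppp2r2a: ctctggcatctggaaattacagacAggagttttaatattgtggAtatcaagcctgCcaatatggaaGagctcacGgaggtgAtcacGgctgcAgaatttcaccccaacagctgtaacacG

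At the other end, the 286 bases of Gm10241 (chromosome 16, minus strand, 20176727 to 20177012) equalled Sumo2 throughout, so a single stretch stands for both genes.

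Gm10241: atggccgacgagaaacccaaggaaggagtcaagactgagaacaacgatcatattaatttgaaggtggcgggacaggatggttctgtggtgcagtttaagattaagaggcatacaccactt

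Members were close to their parents in sequence. A parent was taken from the symbol for 72 members and from the best match among protein-coding transcripts for 227, and 2 members (Gm15433 and Gm2666) had no match. Symbol and best match named the same gene for 71 of 72, the exception being Rpl36a-ps3, which matched Rpl36al best. Identity with the parent had a median of 99.4% (quartiles 98.8% and 99.8%), against a median of 89.5% in the other 8683 processed pseudogenes with a match. The copies covered at least 1 exon join of the parent transcript in 291 cases, with a median of 4 joins, and 288 had a single exon. In 138 members the longest open reading frame was at least 95% as long as the parent's coding sequence, and in 113 it was under 50%. The parents of members had a median of 68.1 FPKM, against 17.4 for the parents of the other copies.

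The 50-base words of a member, a measure of how many short reads could fit both genes, occurred in its parent in a median of 76.5% of cases. All of a member's words were in the parent for 48 members, and under 50% of them were in any other gene for 40. The sources used here do not give how the authors' counting treated reads that fit more than 1 gene. Where the reads of such a pair came from was not tested, and a value below is what was assigned to the name.

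The highest member averaged 1366 FPKM over the 6 libraries, below the macrophage markers Lyz2 and Cd14 in every library. Gm15772, a copy of the ribosomal protein gene Rpl26 with a full open reading frame, had 1629, 1514 and 1574 FPKM in SAHH-KO, against 1065, 1232 and 1183 in control. The groups did not overlap, and the rise was 0.44 on the log2(FPKM + 1) scale (SE 0.08, limma adjusted p 0.00206). Rpl26 itself averaged 5.97 FPKM in SAHH-KO and 5.21 in control, and 98.8% and 98.5% of the pair's reads were on the copy. Gm13394, a copy of the glycolytic gene Gapdh, averaged 1198 ± 23.6 FPKM in SAHH-KO and 1306 ± 98.8 in control (SD, n = 3 each) and was not called. Gapdh averaged 6.01 FPKM in SAHH-KO and 4.42 in control, which is far below its copy.

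Other pairs in the top 10 shared this order. Gm12191, a copy of Rpl30, averaged 749.8 ± 27.9 FPKM in SAHH-KO and 555.1 ± 29.5 in control, against 8.49 and 9.79 FPKM for Rpl30. Atp6v0c-ps2, a copy of a proton pump subunit gene, had 493, 512 and 486 FPKM in SAHH-KO and 792, 633 and 701 in control, with no overlap, and fell by 0.50 on the log2 scale (SE 0.09, limma adjusted p 0.00213). Its parent averaged 6.01 FPKM in SAHH-KO and 4.68 in control. Rps2-ps10 averaged 705 FPKM in SAHH-KO and 639 in control and was not called.

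In the remaining 5 of the 10, the copy and the gene taken as its parent were both abundant. Gm8730, a copy of the ribosomal stalk gene Rplp0, averaged 1157 FPKM in SAHH-KO and 888 in control, and the log2 rise of 0.38 equalled that of the parent to 2 decimals. Rpl3-ps1 averaged 606 FPKM in SAHH-KO and 475 in control, a log2 rise of 0.35. Both rises passed the limma test (adjusted p 0.0137 and 0.0045), but Gm8730 lost the call under TPM scaling (adjusted p 0.0959), assigned-read scaling (0.0952) and with no filter (0.0932), and Rpl3-ps1 lost it under assigned-read scaling (log2 0.19, adjusted p 0.0574). Gm7993 (parent Odc1, the first enzyme of polyamine synthesis), Gm4735 (best match Eno1b) and Gm10123 (Ppia, a prolyl isomerase) did not pass the test as deposited. A best match need not be the gene that was copied, and whether Gm4735 came from Eno1b or Eno1 was not tested. Eno1 averaged 287 FPKM in SAHH-KO and 353 in control, a log2 fall of 0.30 (limma adjusted p 0.00772). Gm7993, Gm4735 and Gm13394 were lower under TPM scaling (limma adjusted p 0.0146, 0.0361 and 0.0162).

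**Figure D1:**
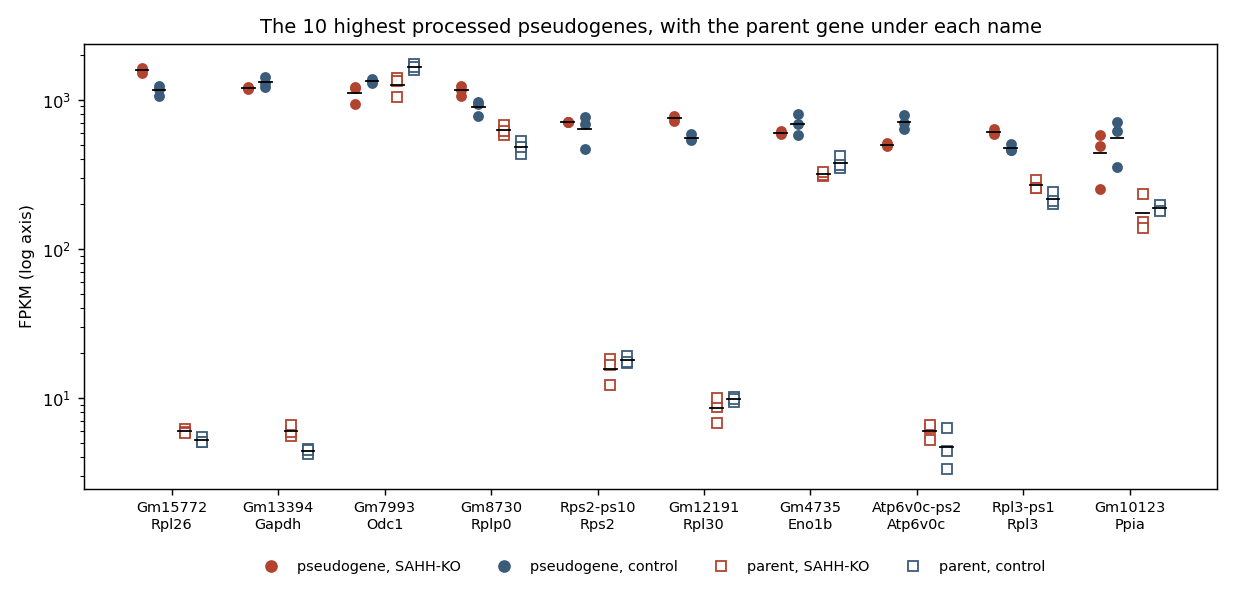
FPKM per library (log axis) of the 10 highest members (filled circles) and their parents (open squares), SAHH-KO left of control, with a black line at each mean of 3 libraries. Rpl26, Gapdh and Atp6v0c lie near 5 FPKM while their copies lie between 486 and 1629.

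Of the 222 parents, 33 had more reads on their expressed copies than on the parent row in both groups. The 4 Gapdh copies held 98.0% of the reads of the family in SAHH-KO and 98.7% in control, and the 3 Rps2 copies held 97.3% and 96.8%. The 5 Hmgb1 copies held 77.5% in SAHH-KO and 73.4% in control. In 61 pairs the parent averaged under 10 FPKM in both groups.

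Over all members, about as many rose as fell. Of 301 members, 67 were higher in SAHH-KO, 70 were lower and 164 were not called. The share called was 45.5%, against 53.3% of all 10362 tested genes (26.4% higher and 26.8% lower). Groups were fully apart in 152 members, against 62.3% of all tested genes. The median log2 fold change was 0.01 over members and -0.01 over all tested genes. Among the 295 members that reached 5 FPKM in both groups, 64 were higher and 67 lower. The split depended on scaling: TPM scaling gave 36 higher and 100 lower members, with 2006 and 3894 of all genes, and scaling by assigned reads, chosen after the data were seen, gave 35 and 101, with 2033 and 3905. These scalings moved the median of all genes by -0.15 and -0.13.

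The members took 1.46%, 1.47% and 1.49% of assigned reads in SAHH-KO libraries, against 1.61%, 1.54% and 1.67% in control libraries. All SAHH-KO values lay below all control values (exact two-sided permutation p 0.1, the smallest possible with 3 against 3). The summed FPKM went the other way, at 20886 ± 406 in SAHH-KO and 20138 ± 653 in control (SD, n = 3 each, exact permutation p 0.2). The library sizes that the deposited FPKM imply were 15220309 to 16636294 in SAHH-KO, below the assigned reads of each library. In control they were 16388048 to 17878152, above the assigned reads of each library. Assigned-read scaling replaces these sizes by the assigned reads. The part of the library sizes in the opposite signs was not tested.

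Copies of ribosomal protein genes were the largest named class. Of 104 such members 44 rose in SAHH-KO, 1 fell and 59 did not pass the test, with a median log2 fold change of 0.32. The share called was 43.3%, against 53.3% of all tested genes (26.4% higher and 26.8% lower). Of the 93 tested protein-coding ribosomal protein genes 60 rose and 4 fell, with a median of 0.34. Among copies, Gm10443 (Rps28) averaged 85.1 FPKM in SAHH-KO and 55.6 in control, a log2 rise of 0.63, and Gm4332 (Rps20) averaged 97.8 and 66.7, a rise of 0.55 (limma adjusted p 0.0101 and 0.00156); both were chosen after their values were seen. Under TPM scaling 19 rose and 2 fell and the median was 0.17, and under assigned-read scaling 18 rose and 2 fell. Of all 10362 tested genes 2006 rose and 3894 fell under TPM scaling, and 2033 and 3905 under assigned-read scaling.

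Among 26 copies placed in the chromatin and RNA-binding class none rose, 18 fell and 8 did not pass the test, with a median log2 fold change of -0.53. The class does not hold every such gene. Carhsp1, whose copy Gm9791 rose, and Hdac1 were counted among other genes. One of the 18, Gm13577, reached 5 FPKM in control alone, so its fall was built into its choice, and without it 17 of 25 fell. The share called was 69.2%, or 68.0% without Gm13577, against 53.3% of all tested genes (26.4% higher and 26.8% lower). Of all genes in this class, 3 rose and 22 fell among the 44 tested protein-coding ones. Under TPM scaling 22 of the 26 fell and none rose, beside 3894 lower and 2006 higher of all 10362 tested genes. Leaving out Gm13577, the other 4 copies of Hmgb1, a DNA-bending chromatin protein that also acts as an alarm signal, fell, as did Hmgb1 itself at -1.13. The highest of them, Gm5518, had 25.5, 26.5 and 24.7 FPKM in SAHH-KO against 53.8, 59.2 and 65.3 in control, with no overlap, and fell by 1.18 on the log2 scale (SE 0.09, limma adjusted p 1.83e-05). Hmgb1-ps2 averaged 8.10 ± 1.40 FPKM in SAHH-KO and 19.4 ± 4.26 in control (SD, n = 3 each). Both copies of Ptma (prothymosin alpha, a histone-binding protein), chosen after their values were seen, were also lower: Gm9800 averaged 163 FPKM in SAHH-KO and 309.6 in control.

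The remaining classes are set against 53.3% of all tested genes called, 26.4% higher and 26.8% lower. Of 8 copies of translation factor genes 3 rose and 1 fell, and the median changed sign between 0.15 as deposited and -0.01 under either other scaling. Of the 64 tested protein-coding translation factor genes 12 rose and 26 fell as deposited, with a median of -0.14. Of 10 glycolysis copies none rose and 3 fell. Under TPM scaling 6 of them fell, beside 3894 lower and 2006 higher of all 10362 tested genes. Of 9 mitochondrial copies 1 rose and 2 fell, of 4 chaperone copies 1 fell, and none of 4 cytoskeleton copies was called. Gm15590, the only copy of an iron storage gene (Ftl1), averaged 6.47 FPKM in SAHH-KO and 10.9 in control and fell, as Ftl1 did. Among the 133 copies of other genes 17 were higher and 43 lower, a share called of 45.1%, and among the 128 of these that reached 5 FPKM in both groups 14 rose and 41 fell.

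**Figure D2:**
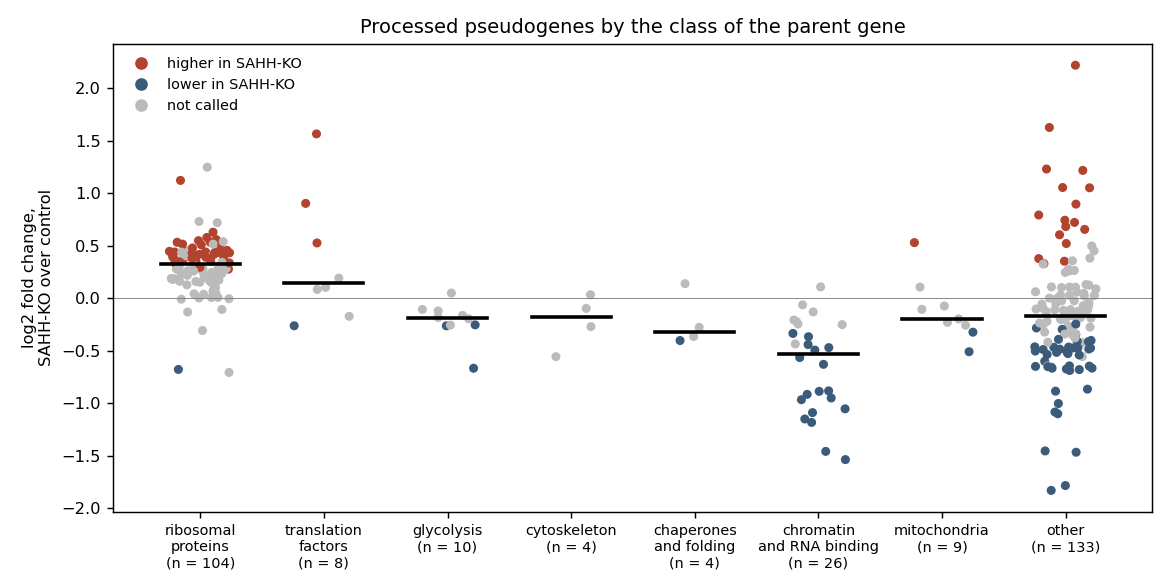
Log2 fold change (SAHH-KO over control, log2(FPKM + 1) scale) of members by the class of the parent; each point is 1 member, black lines are class medians, and the single iron copy and 2 members without a match are left out. Ribosomal protein copies centre on 0.32 and chromatin and RNA-binding copies on -0.53.

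The largest rises among members that reached the level in both groups were copies of genes that rose themselves. Gm5424, a full-length copy of Ass1 (argininosuccinate synthase, which feeds arginine synthesis), had 13.7, 11.3 and 15.7 FPKM in SAHH-KO against 5.10, 3.35 and 2.89 in control. The groups did not overlap, and it rose by 1.63 on the log2 scale (SE 0.18, limma adjusted p 0.000137), with 2.05 for Ass1. Gm7019 (Birc3, an inhibitor of apoptosis) rose by 1.23 and its parent by 1.19. Gm9347 and Gm7901, both copies of Phgdh, the first enzyme of serine synthesis, rose by 1.05 and 0.90 and the parent by 0.99. Gm9791 (Carhsp1, an RNA-binding protein) rose by 1.05 and its parent by 1.47, and Gm13050 (Eef2, the translocation factor of translation) by 0.90 and its parent by 0.78.

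The largest falls included several such pairs. Gm6166, a copy of the fatty acid binding protein gene Fabp5, had 48.4, 54.3 and 68.6 FPKM in SAHH-KO against 187, 124 and 170 in control. It fell by 1.47 on the log2 scale (SE 0.17, limma adjusted p 0.000195) without overlap of the groups, with -1.54 for Fabp5. Gm11223 (Stmn1, a microtubule destabiliser) fell by 1.46, with -1.54 for its parent. Itpa-ps1 (parent Itpa, which hydrolyses inosine triphosphate) fell by 1.10, with -0.78 for the parent. Hmgn2-ps1, identical to its nucleosome-binding parent over its length, fell by 1.09 (adjusted p 0.0108, and 0.0624 without a filter on low values), and Hmgn2 was too low to test.

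Another 6 members reached 5 FPKM in 1 group only, so a difference was built into their choice and their values are a description. Gm44075 (Trim21), Gm19221 (Ppp2r2a) and Gm7353 (Zc3h3) reached it in SAHH-KO, at 7.82, 5.69 and 7.46 FPKM on average, against 0.896, 1.91 and 3.87 in control. Gm14328 (Fabp5), Gm13577 (Hmgb1) and Gm6768 (Ncoa4) reached it in control, with 3.21, 4.00 and 3.80 FPKM in SAHH-KO against 14.0, 13.6 and 5.39 in control.

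Copy and parent could be compared in 285 pairs, and their changes mostly went together. Across pairs the log2 fold changes had a Pearson r of 0.79 and a Spearman rho of 0.75. The points share libraries, parents with several copies and, in most pairs, sequence. They include members that reached 5 FPKM in 1 group only, such as Gm19221, whose difference was built into their choice. Values without these members were not computed. In pairs with under 50% of words shared r was 0.74 (n = 50), with 50 to 90% it was 0.86 (n = 157), and with 90% and over it was 0.66 (n = 78). In 100 pairs both genes passed the test, 99 of them in the same direction. The exception was 2810025M15Rik, whose best match Rpl37a covered 22.1% of it at 79.0% identity. The copy alone passed in 30 pairs and the parent alone in 58, which does not show that they differed. Among the 72 members whose symbol names the parent 21 rose, 14 fell and 37 were not called, beside 26.4% higher and 26.8% lower of all tested genes. In all 27 of their pairs with both genes called the changes went the same way.

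**Figure D3:**
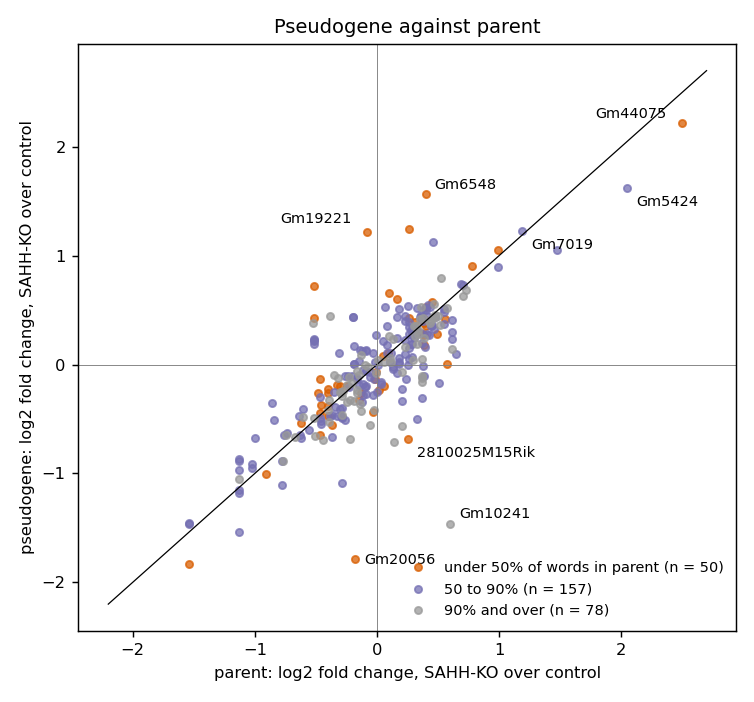
Log2 fold change (SAHH-KO over control) of each member against that of its parent in 285 pairs, coloured by the share of the member's 50-base words found in the parent; the line marks equal change. Most pairs lie near the line (median distance 0.13), and Gm10241 and Gm20056 lie below it and Gm6548 and Gm19221 above it. Gm19221 reached 5 FPKM in SAHH-KO alone, so its difference was built into its choice.

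The ratio of copy to parent was then compared over libraries. Copy and parent differed by less than 0.5 in log2 fold change in 255 pairs, by at least 0.5 in 30 and by at least 1 in 5. These counts include members that reached 5 FPKM in 1 group only, such as Gm19221. The log2 ratio did not overlap between groups in 42 of 285 pairs (14.7%), 15 of them higher and 27 lower in SAHH-KO. An exact permutation test cannot go below 0.1 for any of them. With no difference a share of about 0.1 of pairs would also be apart, so lack of overlap does not show a change in any 1 pair.

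Gm20056, a copy of Chp1 (a calcium-binding partner of sodium/proton exchangers), had 18.1, 27.0 and 22.3 FPKM in SAHH-KO against 88.1, 80.4 and 69.1 in control. It fell by 1.79 on the log2 scale (SE 0.15, limma adjusted p 2.86e-05) with no overlap, and it was the largest fall among members that reached the level in both groups. Chp1 averaged 35.5 FPKM in SAHH-KO and 40.3 in control, a log2 difference of -0.18 that did not pass the test as deposited (adjusted p 0.0607) and passed under TPM scaling (-0.34, adjusted p 0.004). The log2 ratio of copy to parent was lower by 1.61 in SAHH-KO (exact permutation p 0.1, the smallest possible), and 34.0% of the words of Gm20056 occur in Chp1.

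Gm6548, a copy of the elongation factor gene Eef1a1, had 30.4, 34.5 and 33.0 FPKM in SAHH-KO against 11.7, 8.12 and 11.6 in control. It rose by 1.57 (SE 0.13, limma adjusted p 3.53e-05), with 0.40 for the far more abundant Eef1a1, and the groups did not overlap. Of its words 12.8% occur in Eef1a1. Gm11425, a copy of Rpl12, had 26.8, 25.6 and 25.6 FPKM in SAHH-KO against 15.7, 10.4 and 8.99 in control and rose by 1.12, with 0.46 for Rpl12. The log2 ratios of both pairs did not overlap between groups (exact permutation p 0.1 each, the smallest possible). Gm19221, one of the members that reached the level in SAHH-KO alone, differed by 1.22 while Ppp2r2a, a phosphatase subunit gene, stood at 23.4 FPKM in SAHH-KO and 24.8 in control. It lies on the other strand of Sav1, and the sources used here do not say whether counting was stranded.

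Gm10241, the copy that equals Sumo2 (a protein modifier), showed a split of another kind. It had 95.2, 65.0 and 36.1 FPKM in SAHH-KO against 150, 152 and 211 in control and fell by 1.46 (SE 0.31, limma adjusted p 0.00423), with no overlap. Sumo2 had 3.19, 10.9 and 18.7 FPKM in SAHH-KO against 4.40, 8.12 and 4.77 in control, which overlapped. Within SAHH-KO the library with the lowest copy value had the highest parent value. The log2 ratio of the pair overlapped between groups, and since all words of the copy are in Sumo2, the assignment of reads between the names is uncertain.

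**Figure D4:**
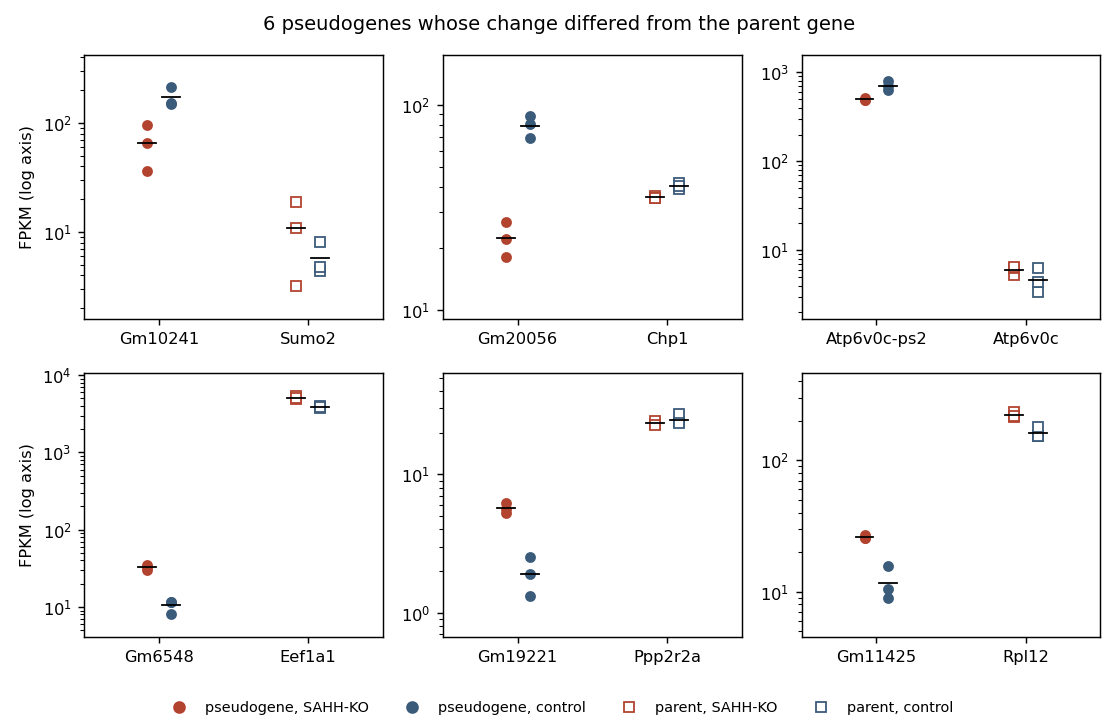
FPKM per library (log axes) of 6 members (filled circles) and their parents (open squares), SAHH-KO left of control, with a black line at each mean of 3 libraries. The copies of Sumo2, Chp1 and Atp6v0c were lower in SAHH-KO than in control, and those of Eef1a1, Ppp2r2a and Rpl12 were higher. The copy of Ppp2r2a reached 5 FPKM in SAHH-KO alone, so its difference was built into its choice.

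Few members shared exons with a host gene. Members lay on 20 chromosomes, 20 of them on X and none on Y. Of 81 members inside or overlapping a protein-coding gene 33 were on its strand and 48 on the other, and exon overlap reached 10% in 3. In 44 of them both host and parent were tested, and the log2 fold change of the member was nearer to that of the parent in 35. The median distance was 0.17 from the parent and 0.37 from the host. Over all members a median of 76.5% of words occur in the parent, so these distances cannot tell where the reads came from.

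Replicates of a group were close for most members and far apart for a few. The highest library of a group stood at a median of 1.23 times the lowest in SAHH-KO and 1.33 times in control. In 5 members values within a group ranged over at least 4-fold. Gm7600, a copy of Rps3a1, had 33.8, 41.5 and 5.71 FPKM in SAHH-KO and 39.9, 3.81 and 2.78 in control. Ube2n-ps1, all of whose words are in the ubiquitin-conjugating enzyme gene Ube2n, had 4.32, 4.44 and 36.5 FPKM in SAHH-KO and 6.63, 6.12 and 8.04 in control. High and low libraries thus occurred within a group, and neither member was called; their parents varied far less, with Ube2n at 16.2 to 21.3 FPKM in SAHH-KO and 23.8 to 29.4 in control.

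**Figure D5:**
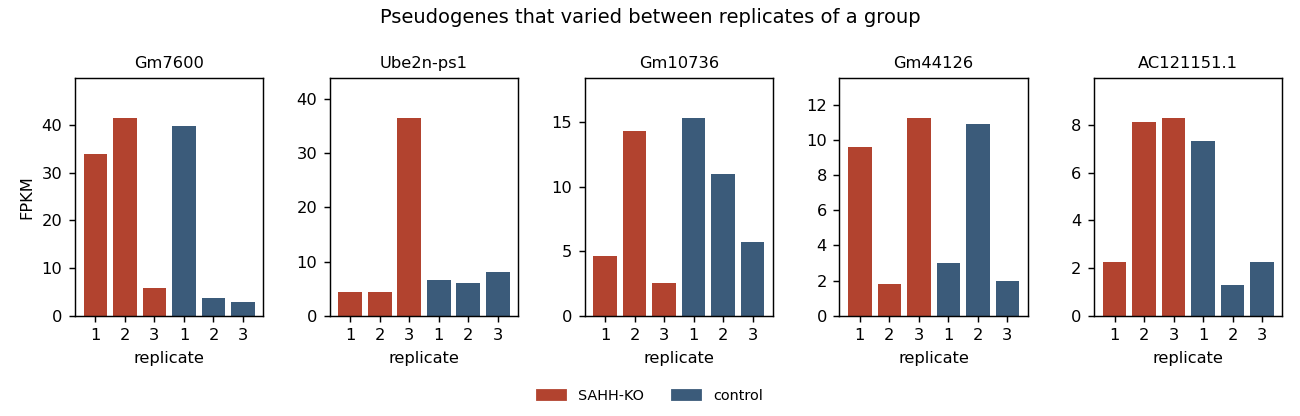
FPKM in each library (bars, axes from 0) of the 5 members with at least a 4-fold range within a group, SAHH-KO left of control. For Gm7600 the highest control library, at 39.9 FPKM, lies within the range of SAHH-KO, and for Ube2n-ps1 1 SAHH-KO library, at 36.5 FPKM, stands above the other 5.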

How the data were processed

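The authors deposited 1 table of FPKM values per gene and library with gene lengths and biotypes. Reads went through FastQC, Trim Galore, STAR and featureCounts on GRCm38 (mm10), per the submitters' processing notes; the sources used here give no versions, strand or multi-mapping settings. FPKM times length gave whole reads (100% of values above 0 within 0.01 of a read), from which assigned reads were recovered; floors cover counting error only. Samples were grouped by their titles, and no per-sample column was left unused.

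All 10362 genes with at least 1 FPKM in at least 3 libraries were tested with limma 3.58.1 in R 4.3.3 (eBayes with trend, two-sided) on log2(FPKM + 1), with Benjamini-Hochberg adjusted p under 0.05 over all genes. Fold changes on that scale understate low genes. The script was tested on simulated data. Ratios and read shares used exact two-sided permutation tests over libraries. Parents came from symbols or from BLAST 2.17.0+ against spliced protein-coding transcripts of GENCODE M21; all 301 members are in M21, 298 with the same start and end. Shared sequence was counted as 50-base words. Sequences came from M21 transcripts.

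Named are the 10 highest members, the 8 largest rises and 8 largest falls among those called and at 5 FPKM in both groups, members at the level in 1 group, those next to the threshold, members whose symbol names the parent, and their parents. Others were chosen after their values were seen. Members and lists were chosen with earlier results of these data known.

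Alternatives were pseudocounts of 0.1 and 0.5, no filter, a filter of 5 FPKM, TPM and assigned-read scaling, a replicate block, other level rules, and leaving out each library.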

Additional observations from a re-analysis of the deposited data

How the results depend on the processing

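Pseudocounts of 0.1 and 0.5 changed no call among 177 named log2 fold changes. Without a filter 22729 genes were tested, 2720 of them higher and 2568 lower. Among members 44 were higher and 39 lower (41 and 36 among those at 5 FPKM in both groups). The cause of the lower member counts was not tested. TPM scaling gave 36 higher members (33 at 5 FPKM in both groups), and assigned-read scaling, added after the data were seen, gave 35 and 32. Members at 1 FPKM in 3 libraries numbered 599, with 107 higher and 115 lower, beside 2736 and 2782 of all 10362 tested genes. The log2 ratio of summed reads, SAHH-KO over control, was -0.13 as a share of assigned reads in both sets, and as summed FPKM it was 0.053 for expressed and 0.051 for all processed pseudogenes.

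Leaving out 1 library gave 51 to 67 higher and 50 to 78 lower members (48 to 64 and 47 to 75 at 5 FPKM in both groups), 2236 to 2934 higher and 2199 to 2969 lower genes, and log2 read share ratios of -0.16 to -0.10. Pairs with ratios that did not overlap numbered 59 to 88 with 1 library fewer, where overlap is less likely by construction, and 7 among pairs that share under 50% of words, a subset added after the data were seen. The log2 fold change of Ube2n-ps1 ranged from -0.55 to 0.86 and reversed to -0.55 without SAHH-KO replicate 3 (limma adjusted p 0.0110).

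With the replicate number as a block 74 members were higher and 76 lower, beside 2729 and 2761 of all 10362 tested genes. The deviations of equally numbered libraries correlated at 0.095, 0.101 and -0.006, against -0.117 to 0.028 for differently numbered ones. Such weak correlations cannot tell whether the numbers pair the samples. With 3 libraries a group, single ratios cannot pass an exact permutation test at any depth.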
